A study of Mus musculus with 4 samples.

Results

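H19, Igf2, Kcnq1ot1 and Phlda2 are imprinted genes of distal mouse chromosome 7. They were chosen because H19 RNA was almost absent from XY gonads without the miR-17~92 microRNA cluster, and the question was whether that loss reaches the neighbouring imprinted domain. They are 4 of the 21495 genes in the count table. Their levels in each cell type and sample, as unique molecular identifier (UMI) counts scaled to the library total (CPM), chose them, so those values and their ratios are given as a description.

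Imprinted genes are transcribed from 1 parental copy, set by DNA methylation that differs between egg and sperm. At the H19-Igf2 domain, a control region upstream of H19 lies between both genes. Unmethylated on the maternal copy, it permits H19 and insulates Igf2 from shared enhancers, and methylated on the paternal copy it silences H19 and permits Igf2, which encodes a fetal growth factor. In the adjacent Kcnq1 domain, the paternal copy transcribes the long non-coding RNA Kcnq1ot1, which silences surrounding genes in cis. Among these are Cdkn1c, an inhibitor of the cell cycle, and Phlda2, a restrainer of placental growth, both expressed from the maternal copy. Germ cells of the fetal gonad erase these marks.

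Gonads with the attached mesonephros, the transient embryonic kidney, were profiled by single-cell RNA sequencing with 10x 3′ chemistry after methanol fixation. Each sample was a pool of 3 to 4 pairs, and which embryo a cell came from is not given in the sources used here. The XY knockout embryos (XY KO, called KO from here on) carried a homozygous CRISPR deletion of miR-17~92 made in XY G4 mouse embryonic stem cells of C57BL/6J and 129 hybrid background. They were obtained by tetraploid complementation, in which the fetus derives from the cultured stem cells, and were collected at embryonic stages E11.5 and E11.75. The XY control at E11.5 came from the unedited parental G4 line by the same route, whereas the XX control at E11.5 came from C57BL/6J males crossed with 129 females. The labels give C57BL/6 x 129S4/SvJae as the strain of all 4 samples. How many stem cell clones stood behind each genotype is not given in the sources used here, so deletion and clone cannot be told apart. In the comparison of KO E11.75 with the E11.5 control, stage and deletion cannot be told apart either. Nor can sex, breeding and the cell filter of the authors, which differed for XX cells, in the XX comparison.

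The XY control held 23527 cells, KO E11.5 17057, KO E11.75 8492 and the XX control 3669, with median depths of 3893, 4763, 3922 and 15510 UMIs per cell. Stages follow the labels, and the deposited sample name of all 52745 cells gives the same stage. The methods text of the study assigns the cell numbers of the KO stages the other way round. Every contrast between KO E11.5 and KO E11.75 follows the labels. Technical replicates, each with its own count matrix, are called runs here. Cells labelled KO E11.75 came from 1 run and those labelled KO E11.5 from 2. The study gives fewer technical replicates for the later KO stage. Sertoli cells were 0.141% of cells labelled KO E11.5 and 1.98% of those labelled KO E11.75. The study describes them as almost absent from the KO at the earlier stage and present at the later one. Both measures go with the labels. The single-cell description in the study rests on these same cells and sample names, however, so the Sertoli shares cannot check the stage. All 7 runs were merged by the authors into 1 table with 13 annotated types, and 345 of its 52400 cell barcodes occurred in more than 1 run. With 1 pool per group there was no replicate and no test. Intervals are exact 95% intervals that cover counting error only, and both runs of a pool measured the same animals. Types with at least 50 cells in both samples were compared, which left out Sertoli cells of KO E11.5 (24 cells) and of the XX control (2 cells), and immune and adrenal gland cells of KO E11.75 (38 and 8 cells). Germ, endothelial and Sertoli cells expressed their own marker list most strongly, whereas in the other 10 types erythroid genes, at 1966 to 4091 CPM in sum, exceeded every other list. After the erythroid genes, coelomic epithelium and mesonephric epithelium scored highest on the interstitial and mesenchyme list (1305 and 1081 CPM) and supporting-like cells on the pre-supporting list (794 CPM), lists that differ in their genes. The coelomic epithelium list was itself highest in coelomic epithelium (1135 CPM, median over types 304.9 CPM), the list for supporting-like cells and tubules was highest in tubules, and no list was fixed for mesonephric epithelium. The pre-supporting list was highest in Sertoli cells (1548 CPM), with 1307 CPM in pre-supporting cells. The interstitial and mesenchyme list was highest in mesonephros cells (2220 CPM), with 2191 CPM in interstitial progenitors. Cells were grouped by the deposited annotation, in which pre-supporting cells are called bipotential progenitors, Sertoli cells supporting, coelomic epithelium epithelial and interstitial progenitors interstitial cells. Summed over all cells the 5 erythroid genes were at 2541 CPM in the XY control, 949 CPM in KO E11.5, 1227 CPM in KO E11.75 and 1094 CPM in the XX control. The study removed blood cells at beta globin cut-offs that differed between the XY samples. Its methods give the highest cut-off for the XY control and the lowest for the KO at E11.5. What part erythroid genes had in the member counts was not tested. Mir17hg, the host transcript of the deleted cluster, was at 19.8 CPM in the XY control, 155.8 and 161.1 CPM in KO E11.5 and E11.75 and 18.2 CPM in the XX control. Where its 3′ reads fall relative to the deleted microRNAs was not examined, so this level does not check the deletion.

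The microRNAs of the locus are shown first, because H19 and Igf2 are themselves microRNA hosts and the KO lacks another set. RefSeq (GRCm38.p6) places miR-675 within H19 at chr7:142577078-142577133, and miR-483 within Igf2 at chr7:142654932-142654989, both on the minus strand. The lines below give mature sequences 5′ to 3′, with the seed (bases 2 to 8) in capitals.
miR-675-5p: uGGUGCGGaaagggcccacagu
miR-675-3p: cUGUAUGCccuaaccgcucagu
miR-483-5p: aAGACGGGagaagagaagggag
miR-483-3p: uCACUCCUccccucccgucuu
The 6 main mature products of the deleted cluster on chromosome 14 fall into 4 seed groups. The miR-17 seed is carried by miR-17-5p and miR-20a-5p and the miR-19 seed by miR-19a-3p and miR-19b-3p, and 1 sequence of each group is shown.
miR-17-5p: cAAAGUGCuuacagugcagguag
miR-18a-5p: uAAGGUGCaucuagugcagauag
miR-19b-3p: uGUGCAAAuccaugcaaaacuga
miR-92a-3p: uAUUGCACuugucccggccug
None of these 4 seeds equals a seed of miR-675 or miR-483.

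H19, Igf2 and Phlda2 held at most 1 match to the cluster each, and the long Kcnq1ot1 transcript held more. A match was any 7-base stretch complementary to bases 2 to 8, searched on the sense strand of GENCODE M21 transcripts (mm10). The 2286-base H19 transcript held 1, for miR-19, and the 3047-base 3′ UTR of Igf2 held 1, for miR-18. The 271-base 3′ UTR of Phlda2 held 0, and the 93092-base Kcnq1ot1 transcript held 21, of which 6 were 8mers, matches extended by 1 base. Per 1000 bases, H19 had 0.437 matches for miR-19 and Igf2 0.328 for miR-18. Kcnq1ot1 had fewer per 1000 bases, 0.0215 to 0.107 for each of the 4 seed groups. For scale, 13% of 14894 annotated 3′ UTRs held a miR-19 match and 9.46% a miR-18 match. Both sites are given with the match in capitals, H19 at chr7:142575816-142575838 and Igf2 at chr7:142653225-142653247, minus strand.
H19 site: cttttgaaTTTGCACtaagtcga
Igf2 site: tatcccaaGCACCTTtagtgtaa
For miR-675-3p, the product of H19 itself, the 7267-base 3′ UTR of Igf1r, the receptor through which IGF2 signals, held 2 matches. They lay at chr7:68226898-68226920 and chr7:68227657-68227679 on the plus strand. A miR-675-3p match occurred in 8.83% of all 3′ UTRs.
Igf1r site 1: atcaccccGCATACAcctgcctg
Igf1r site 2: aaacatttGCATACAcatcgtct
The same 3′ UTR held 1 match to a seed of the deleted cluster, that of miR-92, at chr7:68229962-68229984 on the plus strand, and 7.54% of all 3′ UTRs held such a match.
Igf1r miR-92 site: ggtggacaGTGCAATcctcaact
Igf1r stood at 128.5 CPM for the XY control, 124.5 CPM for KO E11.5, 253.4 CPM for KO E11.75 and 93.6 CPM for the XX control. Small RNAs were not measured, so neither the cluster nor miR-675 has a value here.

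H19 (chr7:142575529-142578143, minus strand, a long non-coding RNA) was nearly lost in both KO samples and in every cell type compared. Over all cells it was at 667.2 CPM in the XY control (70184 UMIs), 11.6 CPM in KO E11.5 (1044 UMIs), 4.39 CPM in KO E11.75 (166 UMIs) and 1011 CPM in the XX control (68721 UMIs). Both controls were far above both KO samples, and no interval overlapped another. The log2 ratio to the XY control was −5.85 in KO E11.5, −7.24 in KO E11.75 and 0.60 for the XX control. H19 had the second lowest log2 ratio of 15252 genes in KO E11.5 and the lowest of 14860 in KO E11.75, where a gene was ranked if it had at least 100 UMIs over both samples. It was the only member at least 2-fold lower in either KO, against 3.82% of all genes at E11.5 and 1.91% at E11.75 (2.1% in the XX control). No member was 2-fold higher over all cells in any comparison, against 0.636% of genes in KO E11.5, 3.24% in KO E11.75 and 1.45% for the XX control.

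By cell type, H19 in the XY control ranged from 1206 CPM in endothelial cells to 52.9 CPM in primordial germ cells. Supporting-like cells, which form the rete, followed at 991 CPM, then mesonephric epithelium at 925 CPM and adrenal gland cells at 880 CPM. Mesonephros cells were at 790 CPM, interstitial progenitors at 663 CPM and mesonephric tubules at 591 CPM, ahead of Sertoli cells at 496.5 CPM and pre-supporting cells, their precursors, at 482.5 CPM. Adrenosympathetic cells were at 419.7 CPM, coelomic epithelium at 393.6 CPM and immune cells at 199.5 CPM. Of the 12 neighbouring pairs in this order, 3 had overlapping intervals. These were mesonephric epithelium with adrenal gland cells, Sertoli with pre-supporting cells, and adrenosympathetic cells with coelomic epithelium. The XX control kept a like order, with Pearson's r = 0.981 and Spearman's rho = 0.972 over 12 types on log2(CPM + 1), as a description.

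The fall was at least 2-fold in 12 of 12 types in KO E11.5 and in 11 of 11 in KO E11.75, whereas over all pairs of 1 gene and 1 cell type 1.17% and 1.25% were 2-fold lower. The median log2 ratio over types was −6.60 (a 96.7-fold fall) and −7.16 (143-fold). Immune cells of KO E11.5 and adrenosympathetic cells of KO E11.75 held 0 H19 UMIs. Set against 3 UMIs per sample, H19 was at least 37.4-fold lower in the former and at least 58.4-fold lower in the latter, and with both types at these bounds the median falls were 84.2-fold and 115-fold. Pre-supporting cells went from 482.5 CPM to 5.14 CPM (31 UMIs) and 3.27 CPM (15 UMIs), with 1020 CPM in the XX control. That was the 1 type of 12 in which H19 was 2-fold higher in the XX control, against 0.514% of pairs. Endothelial cells had the largest ratios, from 1206 CPM to 4.68 and 2.68 CPM (log2 −7.96, −8.85 to −7.29, and −8.59, −11.09 to −7.26).

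Primordial germ cells, which lose parental marks around this stage, had the smallest fall. They held 52.9 CPM in the XY control, 6.35 CPM (13 UMIs) in KO E11.5, 10.9 CPM (17 UMIs) in KO E11.75 and 68.1 CPM in the XX control. The falls were 8.32-fold (log2 interval −3.98 to −2.26) and 4.85-fold (log2 −2.24, −3.07 to −1.58), and neither interval overlapped that of any other type in the same KO sample. Their control level was the lowest of 13 types, while in KO E11.75 their 10.9 CPM (6.36 to 17.5) lay within the overlapping intervals of the other types, next to supporting-like cells at 8.01 CPM (2.94 to 17.4).

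**Figure D1:**
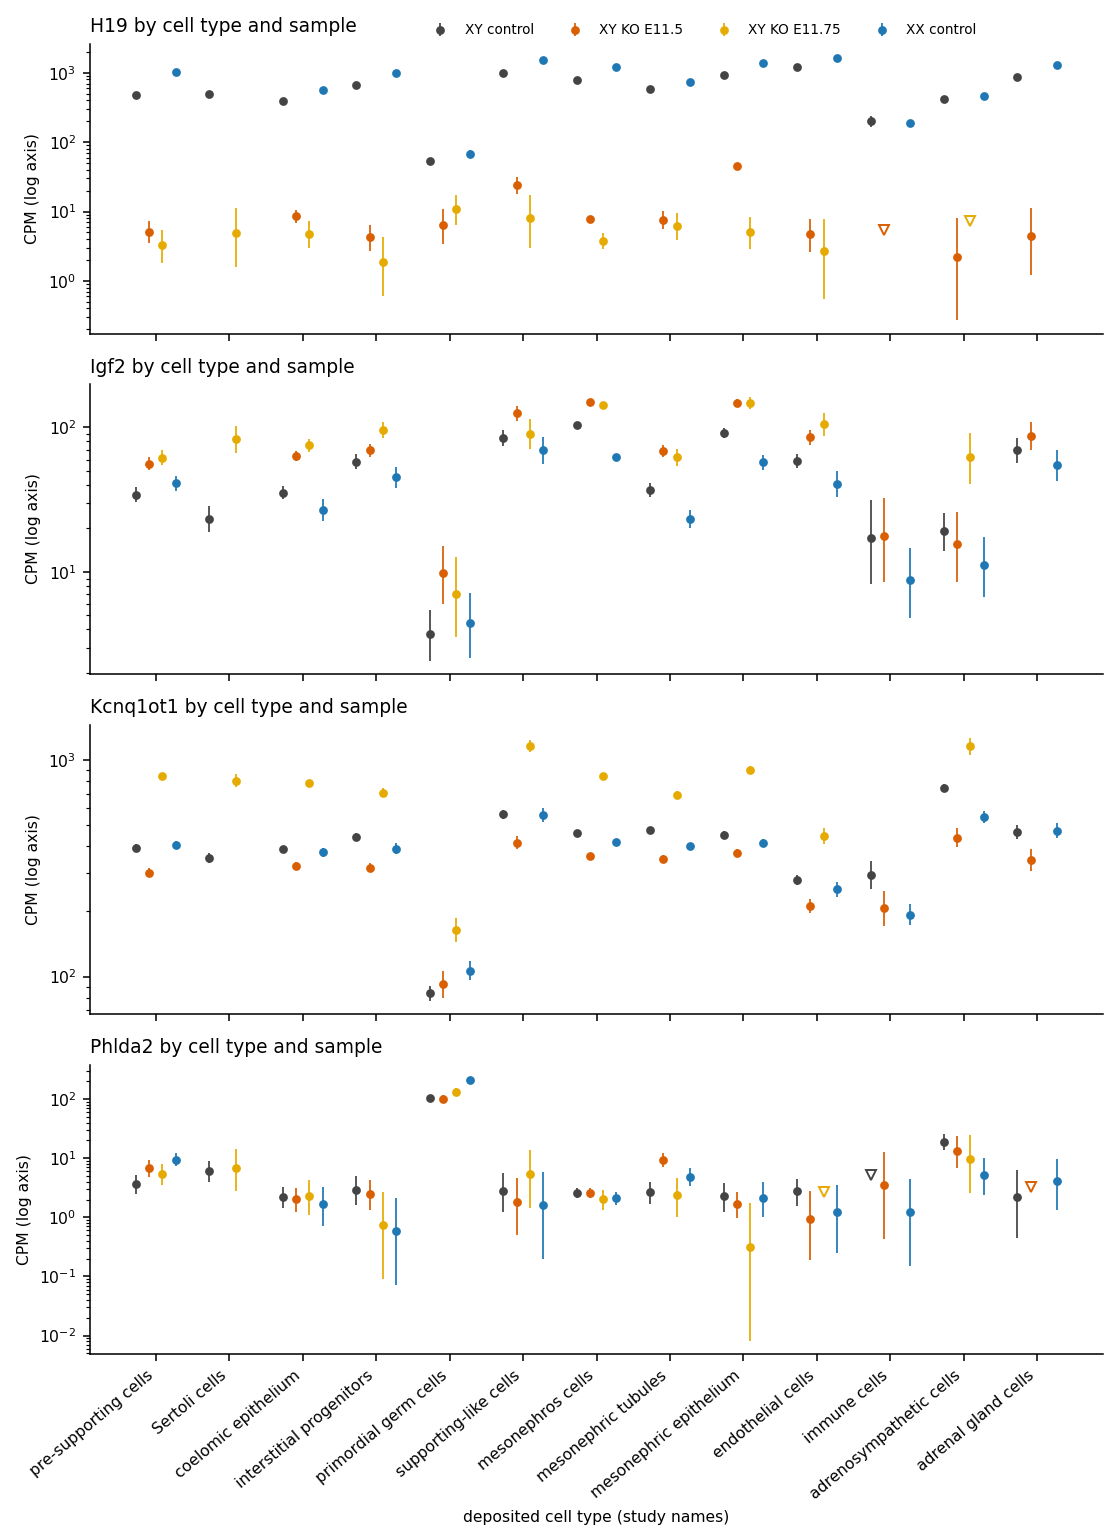
CPM (log axis) of H19, Igf2, Kcnq1ot1 and Phlda2 by annotated cell type in the XY control, KO E11.5, KO E11.75 and the XX control, with exact Poisson intervals as bars; open triangles stand at the CPM of 3 UMIs where a sample held 0. H19 in both KO samples lies below every control value of the same type, from 0 to 44.9 CPM, while Kcnq1ot1 is below the XY control in most types of KO E11.5 and above it in KO E11.75, and Phlda2 peaks in germ cells of all samples.

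Cell by cell, H19 had 0 UMIs in 97.5% of KO E11.5 cells, 98.4% of KO E11.75 cells, 39.7% of XY control cells and 2.89% of XX control cells. Since depths differed, cells with at least 3000 UMIs were thinned to 3000, which left out 6279, 1817, 2425 and 67 cells of the XY control, KO E11.5, KO E11.75 and the XX control. The share at 0 was then 98.3% (98.1 to 98.5) in KO E11.5 and 98.9% (98.7 to 99.2) in KO E11.75. It was 45.9% (45.1 to 46.6) in the XY control and 13.7% (12.6 to 14.8) in the XX control.

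The share at 0 in the XY control was alike in both runs (45.4% and 46.5%). Within single types it was above that of a Poisson count of the same mean, which would be 9.25% in mesonephros cells against 42.8% observed, and 23.6% in pre-supporting cells against 51%. No other gene was set beside H19 for scale. A thinned count of 0 is not absence, since at full depth XY control cells at 0 held 23.9 to 79.1 CPM of H19, depending on the type. Cells at 0 occurred in every somatic type of the XY control. Over the 11 types other than germ and immune cells their share ran from 35.7% in endothelial to 51% in pre-supporting cells, with a median of 46.4%, whereas over 10 such types of the XX control it ran from 1.16% to 35.2% with a median of 10%. In mesonephros cells, the most numerous type, 42.8% of XY control cells and 6.75% of XX control cells were at 0, while 35.8% and 61.7% had at least 3 thinned H19 UMIs. Primordial germ cells were alike in both controls, at 86.7% and 86.9%.

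**Figure D2:**
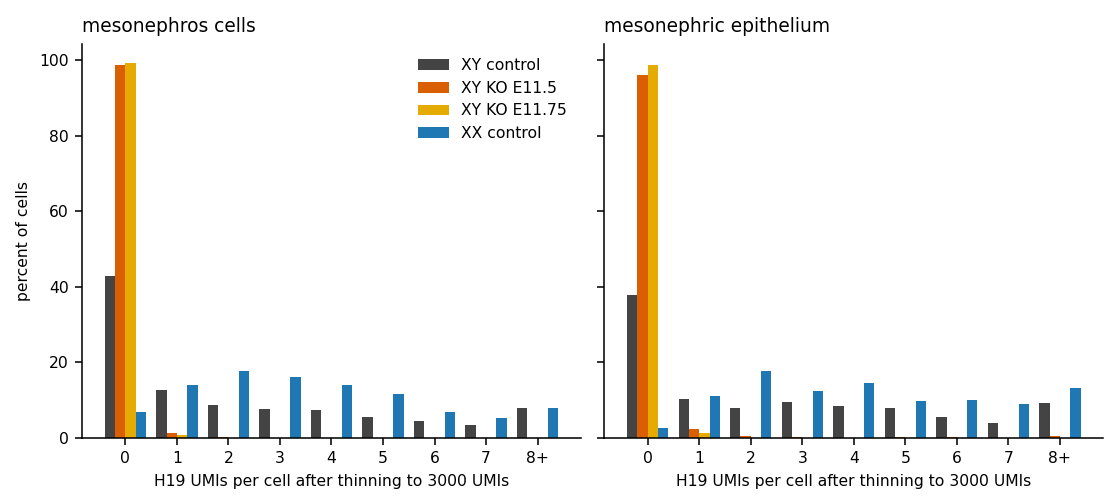
Percent of cells (y axis) at each number of H19 UMIs after thinning to 3000 UMIs per cell (x axis), in mesonephros cells and mesonephric epithelium of the 4 samples. The XY control has a peak at 0, at 42.8% and 37.7%, and a broad tail reaching 8 UMIs or more, the XX control is spread around 2 to 4 UMIs, and both KO samples stand almost entirely at 0.

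H19 was concentrated in a few cells of the KO E11.5 sample. There, 47 of 17057 cells had at least 5 H19 UMIs, and these 47 held 576 of the 1044 H19 UMIs of the sample. Of these, 24 were mesonephric epithelium, 1.29% (0.827 to 1.91) of its cells, against 0.151% (0.0960 to 0.227) of all other cells. They were split 24 and 23 between the runs, and 1 carried a barcode also found in another sample. Their H19 level was 1805 CPM, and Mir17hg was at 200.5 CPM, beside 155.3 CPM in cells of the sample at 0 H19 and 19.8 CPM in the XY control. The origin of these cells was not tested. Only 1 of 8492 cells reached 5 H19 UMIs in KO E11.75. Without the 47 cells, H19 in KO E11.5 was at 5.21 CPM, and mesonephric epithelium, the highest KO type at 44.9 CPM, was at 9.79 CPM.

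Igf2 (chr7:142650766-142666816, minus strand, 88.7 kb from the H19 start), the growth factor gene of the same domain, moved the other way by a far smaller amount. Over all cells it was at 67.2 CPM in the XY control (7073 UMIs), 114.5 CPM in KO E11.5 (10328 UMIs), 104.0 CPM in KO E11.75 (3937 UMIs) and 45.8 CPM in the XX control (3109 UMIs). Both KO samples were above both controls, and the XX control was lowest. The log2 ratios were 0.77 (0.72 to 0.81) at E11.5 and 0.63 (0.57 to 0.69) at E11.75 for the KO and −0.56 (−0.62 to −0.49) in the XX control, where the median of all genes was −0.10, 0.16 and −0.12. The runs of the XY control were at 66.8 and 67.8 CPM. Those of KO E11.5 were at 109.6 CPM (106.6 to 112.8) and 119.0 CPM (115.9 to 122.2), so runs of 1 pool could differ beyond their counting intervals. Gm49394 (chr7:142650769-142669942), a protein-coding gene on the same strand, overlaps nearly all of Igf2. It held 2, 0, 4 and 0 UMIs in the XY control, KO E11.5, KO E11.75 and the XX control. How reads of the shared stretch were assigned was not examined, so the CPM given for Igf2 may understate its level.

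Igf2 was above the XY control beyond counting error in 9 of 12 types of KO E11.5 and 9 of 11 of KO E11.75, and below it in none. Over all pairs of gene and cell type, 10.5% and 33.7% had an interval above 0. The median log2 ratio was 0.56 and 0.85. Igf2 was 2-fold higher in 1 type of KO E11.5 (primordial germ cells, from 26 and 20 UMIs) and in 3 of KO E11.75, against 0.508% and 2.81% of pairs. Mesonephros cells, at the top of the XY control with 103.2 CPM, reached 148.8 and 143.0 CPM and were at 62.6 CPM in the XX control. Mesonephric epithelium followed in the same way with 91.5, 148.5, 147.5 and 57.6 CPM. Pre-supporting cells stood at 34.3, 56.2, 61.9 and 41.1 CPM, the 1 somatic type in which the XX control was above the XY control beyond its interval (0.26, 0.018 to 0.51). Sertoli cells had the largest ratio at E11.75, 23.4 against 82.8 CPM (log2 1.83, 1.39 to 2.26). In the XX control Igf2 was below the XY control in 6 of 12 types (30% of pairs) and above it in 1 (12.4%), and in no type past 2-fold. Germ cells were lowest throughout, at 3.73, 9.78, 7.06 and 4.43 CPM. Along the order of the XY control, from mesonephros cells down to germ cells, 8 of 12 neighbouring pairs had overlapping intervals.

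Igf2os (chr7:142659693-142670356, plus strand), an antisense RNA that overlaps Igf2, followed it. It was at 19.5 CPM in the XY control, 37.9 CPM in both KO samples and 10.96 CPM in the XX control (log2 0.96, 0.96 and −0.83). The authors ran Cell Ranger with its default settings, which count reads on a gene's own strand. Of all 9748 genes with a mean of at least 10 CPM, Igf2os was also the most like Igf2 across 48 sums of 1 type and sample (r = 0.926), ahead of Heph (0.888) and Creb3l2 (0.881). Across the 25 sums of both controls, the most like genes were Pabpc4l (0.901), Fat4 (0.900) and Prrg1 (0.899). For H19 they were Pafah1b3 (0.864), Hnrnpul1 (0.795) and Bckdha (0.766) over 48 sums, and 5031425E22Rik (0.901), Hmg20b (0.896) and Bloc1s1 (0.890) over the controls. Sums of 1 sample share libraries and depth. Ins2, the insulin gene of the domain, had 25, 14, 6 and 22 UMIs, too few for a comparison, and Nctc1 had no row under that name.

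The XY control also allowed a look at Igf2 beside H19 within 1 sample. Cells of each type were grouped by their thinned H19 count, at 0 or at 3 or more, a split chosen after the H19 counts per cell had been seen. In mesonephros cells, 3234 cells at 0 had 130.8 CPM of Igf2 and 2706 cells at 3 or more had 78.7 CPM (log2 0.73, 0.62 to 0.85). Igf2os stood at 40.1 against 20.6 CPM (0.96, 0.75 to 1.18). In mesonephric epithelium, Igf2 was at 125.4 CPM in 413 cells at 0 and 63.0 CPM in 486 cells at 3 or more (0.99, 0.69 to 1.31), and Igf2os at 52.5 and 22.4 CPM (1.22, 0.72 to 1.75).

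Little else separated those epithelial cells past 2-fold, and genes with smaller shifts were not counted for this type. Of 6552 genes with at least 100 UMIs, Igf2os was the only one past 2-fold besides H19 (0.0153% in each direction). H19 was lower by the choice of the split. Igf2 had the second highest ratio after Igf2os. In mesonephros cells 3 of 11171 genes were 2-fold lower and 20 higher. There Igf2os ranked 22nd and Igf2 48th from the highest ratio. In supporting-like cells Igf2 had the highest ratio of 3299 genes, 112.4 against 53.3 CPM (1.07, 0.56 to 1.60). In endothelial cells it was at 72.5 against 50.2 CPM (0.53, 0.15 to 0.91) and ranked 94th of 6162 genes. Of these genes, 9 were 2-fold lower and 1 higher. Median depths of both groups were close, 4120 and 4158 UMIs in mesonephric epithelium and 4205 and 4095 in mesonephros cells.

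In 5 other types the interval of the log2 ratio held 0, and differences between types were not tested. These were pre-supporting cells (35.4 and 29.6 CPM), coelomic epithelium (37.3 and 32.7 CPM), interstitial progenitors (59.2 and 69.9 CPM), adrenal gland cells (74.8 and 65.6 CPM) and adrenosympathetic cells. The last had the highest ratio of all 11 types, but from 20 and 3 UMIs (1.24, −0.33 to 3.82). In mesonephric tubules Igf2 was lower in cells at 0, at 34.5 against 49.9 CPM (−0.53, −0.91 to −0.15), and in Sertoli cells at 20.4 against 34.1 CPM (−0.75, −1.46 to −0.012). The tubule groups also differed in 176 of 8363 genes past 2-fold, which is 2.1%, so the split there separated cells in many genes besides H19. The Sertoli groups differed in few, with 1 of 4961 genes 2-fold lower and 2 higher, H19 among them. Over 11 types the median ratio of Igf2 was 0.25, with 4 above 0, 2 below and 5 that held 0, against 6.74% and 6.71% of pairs above and below. In the XX control, where 4 types had at least 50 cells on both sides, Igf2 was lower in cells at 0 in all 4 (12.3% of pairs below), for instance 36.0 against 70.2 CPM in mesonephros cells (−0.95, −1.34 to −0.61). There the cells at 0 after thinning still held 543.9 CPM of H19 at full depth, against 33.8 CPM in those of the XY control, so the same split did not pick like cells in both controls.

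The KO level of Igf2 was also set beside each control group over 10 types. The control groups held only cells with at least 3000 UMIs, whereas the KO side held all cells of a type. Against XY control cells at 3 or more H19 UMIs, the median log2 ratio was 0.89 in KO E11.5 (above 0 in 7 of 10 types, 9.92% of pairs) and 1.06 in KO E11.75 (9 of 10, 28.8%). Against cells at 0 it was 0.23 (5 of 10, 9.2%) and 0.75 (9 of 10, 34.1%). The types differed at E11.5. Mesonephric epithelium was at 0.24 against cells at 0 and 1.23 against cells at 3 or more, whereas mesonephric tubules went the other way, with intervals of 0.72 to 1.29 and 0.16 to 0.79, as did interstitial progenitors, at 0.23 and −0.0091 with both intervals holding 0. The control cells at 0 still held 23.9 to 79.1 CPM of H19, against 2.23 to 44.9 CPM in these types of KO E11.5, and the difference between both comparisons was not tested. Among the 47 KO cells with at least 5 H19 UMIs, Igf2 was at 68.9 CPM (43.2 to 104.4, 22 UMIs) against 114.7 CPM (112.5 to 117.0) in KO cells at 0. Within mesonephric epithelium this was 90.6 CPM (50.7 to 149.4, 15 UMIs) against 148.1 CPM (140.2 to 156.2), and these intervals overlapped. KO cells with 1 to 4 H19 UMIs were at 111.0 CPM (98.2 to 125.0) over all types, overlapping cells at 0, and at 184.3 CPM (144.2 to 232.1) in mesonephric epithelium, above the 148.1 CPM of cells at 0 with overlapping intervals.

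**Figure D3:**
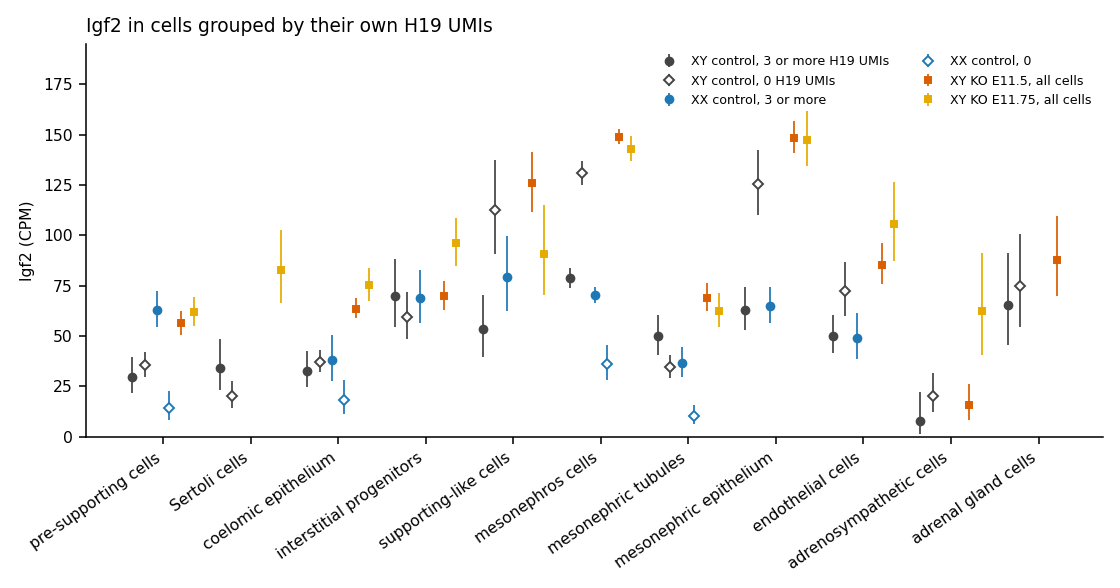
Igf2 in CPM (y axis) by cell type in XY control and XX control cells at 3 or more (filled circles) and at 0 (open diamonds) thinned H19 UMIs, and in all cells of both KO samples (squares), with exact Poisson intervals. In mesonephros cells and mesonephric epithelium the XY control cells at 0 (130.8 and 125.4 CPM) lie between cells at 3 or more (78.7 and 63.0 CPM) and the KO, while in mesonephric tubules and in the XX control the cells at 0 are the lower ones.

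Kcnq1ot1 (chr7:143203458-143296549, minus strand, its start 718.4 kb from that of H19), the silencing RNA of the next domain, was not lost. Over all cells it was at 417.4 CPM in the XY control (43912 UMIs), 340.0 CPM in KO E11.5 (30677 UMIs), 784.1 CPM in KO E11.75 (29670 UMIs) and 389.6 CPM in the XX control (26477 UMIs). The 2 KO samples lay on opposite sides of the XY control, with log2 ratios of −0.30 (−0.32 to −0.28) and 0.91 (0.89 to 0.93), and the XX control was close to it at −0.099. Share of cells with a UMI after thinning followed, at 62.5%, 57.6%, 81.2% and 61.3%, and at full depth it was 71.5%, 71.1%, 85.9% and 91.8%.

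In KO E11.5 the median over types was −0.42, with 11 of 12 below 0 (23.9% of pairs) and primordial germ cells at 0.14 (−0.10 to 0.38). Ratios of the 11 ran from −0.25 in coelomic epithelium to −0.76 in adrenosympathetic cells, and none reached 2-fold. In KO E11.75 the median was 0.97, with 11 of 11 above 0 (33.7% of pairs), from 0.55 in mesonephric tubules to 1.19 in Sertoli cells, and 5 of 11 were 2-fold higher (2.81% of pairs). Pre-supporting cells were at 393.3, 302.0, 847.8 and 406.7 CPM in the XY control, KO E11.5, KO E11.75 and the XX control, and germ cells, the lowest type of every sample, at 83.8, 92.4, 164.3 and 106.3 CPM. The highest levels of the XY control were in adrenosympathetic cells (743.3 CPM) and supporting-like cells (561.0 CPM), and 7 of 12 neighbouring pairs in the order overlapped.

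Malat1, Gm42418 and Neat1 were listed beside Kcnq1ot1 as other nuclear or ribosomal transcripts. Malat1, a nuclear RNA, was at 14500, 13230, 18960 and 15640 CPM in the XY control, KO E11.5, KO E11.75 and the XX control. Gm42418, which overlaps a ribosomal RNA repeat, was at 4642, 4254, 12000 and 5228 CPM. Over types, Malat1 had median log2 ratios of −0.17 in KO E11.5 and 0.38 in KO E11.75, and Gm42418 of −0.22 and 1.31, with both above 0 in 11 of 11 types of the latter. At E11.5 Gm42418 was below 0 in 11 of 12 types and Malat1 in 7, with Malat1 above 0 in 3. Neat1, at 27.9, 16.6, 33.5 and 30.6 CPM, held 0 in 8 of 12 types at E11.5, with 3 below and 1 above (median −0.41). At E11.75 it held 0 in 6 of 11, with 4 above and 1 below (median 0.61). The part of these RNAs in the Kcnq1ot1 values was not tested. Mitochondrial genes took 4.32%, 4.52%, 5.64% and 3.20% of UMIs. The genes most like Kcnq1ot1 were Aff4 (r = 0.922), Atad2b (0.921) and Nsd1 (0.918) over 48 sums and Gm1673 (0.951), Serpinf1 (0.95) and Zfp512b (0.946) over the controls.

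**Figure D4:**
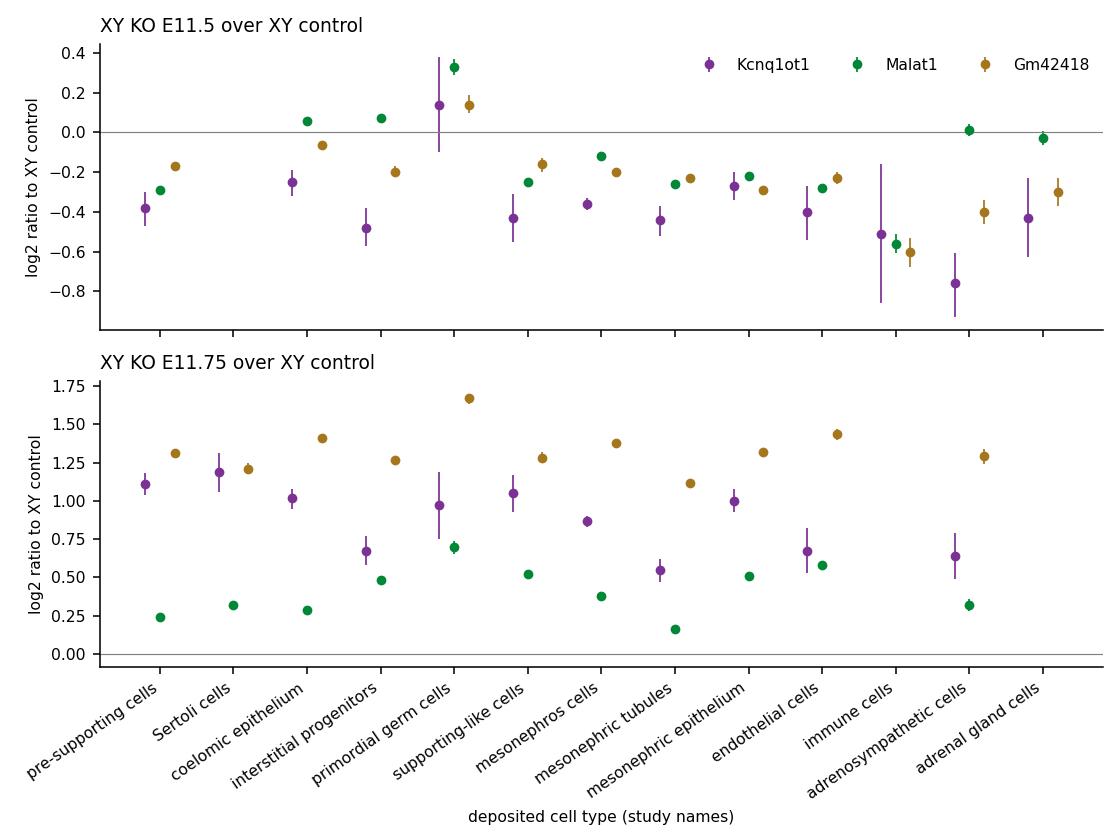
Log2 ratio to the XY control (y axis, scales differ between panels) of Kcnq1ot1, Malat1 and Gm42418 by cell type in KO E11.5 and KO E11.75, with exact binomial intervals. Kcnq1ot1 is below 0 in 11 of 12 types at E11.5 and above 0 in 11 of 11 at E11.75, between 0.55 and 1.19, where Gm42418 and Malat1 are above 0 too.

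In XY control cells split by H19, Kcnq1ot1 moved by small amounts, and genes outside the H19-Igf2 domain moved too. The median ratio of cells at 0 over cells at 3 or more was −0.13 over 11 types, from −0.32 to 0.11, with 6 below 0 (6.71% of pairs) and 5 that held 0. Meg3, an imprinted RNA of another chromosome, was below 0 in 7 of 11 types of the XY control, down to −0.74 in coelomic epithelium, and in 4 of 4 of the XX control (median −1.12). XY control cells at 0 H19 with at least 3000 UMIs were also set beside all KO cells. Against them, Kcnq1ot1 was still below 0 in 10 of 10 types of KO E11.5 (median −0.32, 20.5% of pairs). In KO E11.75 it was above 0 in 10 of 10 (0.98, 34.1% of pairs).

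Phlda2 (chr7:143501545-143503150, minus strand, its start 925 kb from that of H19), a target of Kcnq1ot1 silencing, had its highest CPM in germ cells in every sample. Over all cells it was at 9.90 CPM in the XY control (1041 UMIs), 5.39 CPM in KO E11.5 (486 UMIs), 7.82 CPM in KO E11.75 (296 UMIs) and 14.3 CPM in the XX control (969 UMIs). Primordial germ cells held 70.1%, 42.4%, 69.6% and 78.8% of these UMIs while being 2.36%, 0.967%, 1.79% and 2.29% of the cells. KO E11.5, with the smallest share of germ cells, had the lowest value over all cells. Across the controls the most like genes were Pou5f1 (r = 0.891), a pluripotency factor of germ cells, Txlng (0.890) and Coa7 (0.888), and over 48 sums Cct2 (0.841), Zfp42 (0.837) and Tex19.1 (0.835).

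Within germ cells Phlda2 was at 104.6 CPM in the XY control (556 cells), 100.7 CPM in KO E11.5 (165 cells), 132.2 CPM in KO E11.75 (152 cells) and 211.5 CPM in the XX control (84 cells). KO E11.5 did not differ beyond counting error (−0.052, −0.29 to 0.17), KO E11.75 was somewhat higher (0.34, 0.11 to 0.56) and the XX control was higher still (1.02, 0.87 to 1.16). Without germ cells Phlda2 was at 3.17, 3.18, 2.48 and 3.19 CPM, and the log2 ratio of −0.88 in KO E11.5 became 0.0041 (−0.23 to 0.24). For H19, Igf2 and Kcnq1ot1 the same step gave −5.93, 0.70 and −0.35.

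Other types had low counts. In KO E11.5, 2 of 12 types were above 0 (10.5% of pairs), mesonephric tubules with 2.65 against 9.49 CPM (24 and 57 UMIs, 1.82, 1.13 to 2.59) and pre-supporting cells with 3.68 against 6.80 CPM (29 and 41 UMIs, 0.88, 0.17 to 1.63), and the other 10 held 0. In KO E11.75, tubules were at 2.37 CPM and pre-supporting cells at 5.45 CPM, and both intervals held 0. Of 11 types of KO E11.75, 1 was above 0 and 1 below (18.8% of pairs below). In the XX control pre-supporting cells were at 9.44 CPM (1.35, 0.71 to 2.05), and of 12 types 2 were 2-fold higher (0.514% of pairs), these and germ cells, and 3 of few UMIs were 2-fold lower (1.53%). Adrenosympathetic cells were the second type of the XY control, at 19.1 CPM.

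The remaining genes of both domains were measured beside the members. Of the 13 listed genes of the Kcnq1 domain, 12 had at least 100 UMIs over the XY control and KO E11.5. In KO E11.5, 0 of the 12 were 2-fold higher (0.636% of all genes) and 2 were 2-fold lower (3.82%), the transporter gene Slc22a18 (1.48 to 0.621 CPM, −1.25, −1.72 to −0.81) and the tetraspanin gene Tspan32 (4.12 to 1.86 CPM, −1.14, −1.41 to −0.88). In KO E11.75 1 of 12 was 2-fold higher, the cation channel gene Trpm5 (0.989 to 7.24 CPM, 2.87, 2.54 to 3.21), and 0 were lower, against 3.24% and 1.91% of all genes. The fall of Slc22a18 lay mostly in mesonephric tubules, with 65 UMIs in the XY control and 6 in KO E11.5 (−2.74, −4.34 to −1.65), and in the other 11 types the interval held 0. The list's median log2 ratio was −0.17 and −0.094, against −0.10 and 0.16 for all genes. Cdkn1c was at 1029, 1095, 718.2 and 1313 CPM in the XY control, KO E11.5, KO E11.75 and the XX control, and by type it was above 0 in 7 of 12 and below in 5 at E11.5 (10.5% and 23.9% of pairs). In KO E11.75 it was below 0 in 10 of 11 types and above in 1 (18.8% and 33.7% of pairs, median −0.53), and in the XX control above in 11 of 12 and below in 1 (12.4% and 30% of pairs). Kcnq1, which contains Kcnq1ot1 on the other strand, was at 0.846, 0.632, 1.30 and 0.50 CPM. Nap1l4 (184.6, 180.5, 170.8 and 181.2 CPM), Tssc4, Cd81, Osbpl5 and Th stayed within 0.70 of 0 on the log2 scale in all 3 comparisons.

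Over a wider stretch, 101 genes of the table start within 2.0 Mb of the H19 start. In KO E11.5, 78 were counted at 100 UMIs or more and 4 of them were 2-fold lower (Syce1, H19, Tspan32 and Slc22a18), with 0 higher, that is 5.13% of the window against 4.46% of all genes. In KO E11.75 it was 3 of 76 (Sct and H19 lower, Trpm5 higher), 3.95% against 5.15%, and in the XX control 1 of 78 (Tnni2 higher), 1.28% against 3.55%. H19 was the 1 gene of the window past 2-fold in the same direction in both KO samples. The 2 KO samples share the XY control. Mrpl23, the nearest tested gene on the far side of H19 from Igf2, had median ratios of 0.13 and −0.27 over types.

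**Figure D5:**
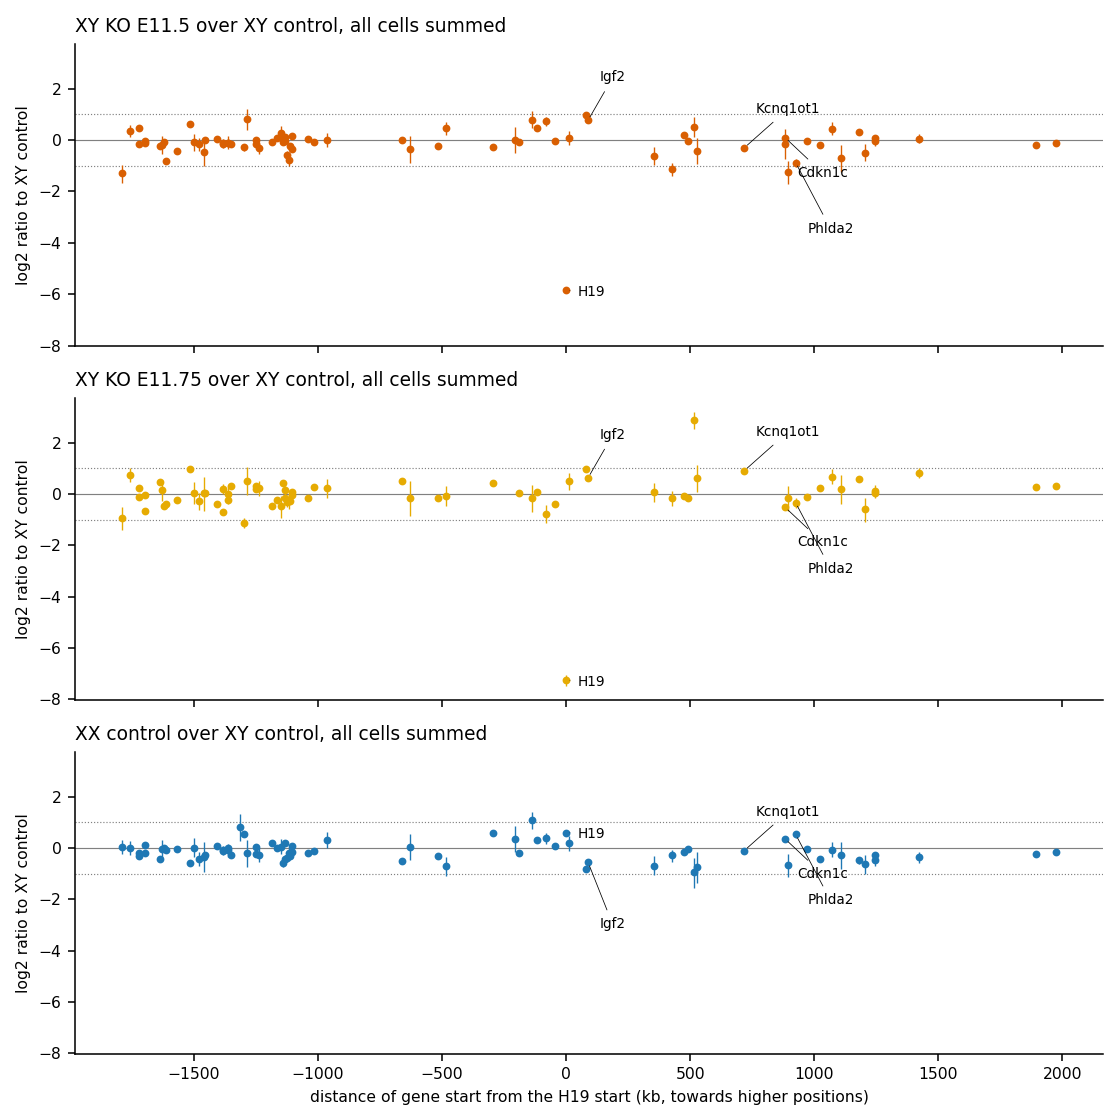
Log2 ratio to the XY control over all cells (y axis) against the distance of each gene's start from that of H19 in kb (x axis), for genes within 2.0 Mb with at least 100 UMIs, in 3 panels for KO E11.5, KO E11.75 and the XX control; bars are exact intervals and dotted lines mark 2-fold. H19, at −5.85 and −7.24, stands alone at the bottom of both KO panels, and Igf2 lies above 0 there and below 0 in the XX control.

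Imprinted genes on other chromosomes or farther along chromosome 7 were counted as a list of 23, of which 21 were testable. None was past 2-fold in either KO (4.46% and 5.15% of all genes), and the median log2 ratio was 0.093 and 0.19. The highest ratios were those of the growth regulator gene Dlk1 at E11.5 (345.5 to 617.0 CPM, 0.84) and the non-coding RNA Meg3 at E11.75 (758 to 1502 CPM, 0.99). In the XX control the amino acid transporter gene Slc38a4 was the 1 lower (169.1 to 73.9 CPM, −1.20). Among 10 genes of the IGF2 axis, 0 were past 2-fold in KO E11.5 and 3 were higher in KO E11.75, the receptor gene Insr (34.4 to 69.8 CPM) and the binding protein genes Igfbp3 (488.2 to 990.5 CPM) and Igfbp5 (542.4 to 1537 CPM), against 3.24% of all genes. Igf2r, whose product clears IGF2, was at 145.5 CPM in the XY control, 210.8 and 226.3 CPM in the KO samples and 116.6 CPM in the XX control.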

How the data were processed

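Single-cell RNA sequencing of gonad and mesonephros pools was analysed from 1 deposited table of whole-number UMI counts per gene and cell, made by the authors with Cell Ranger 6.1.1 and Seurat on mm10, per the submitters' processing notes, together with their deposited cell types. The cells had been filtered and integrated by the authors, and no cell was removed or called a doublet here. The study filtered XY cells by cut-offs, with a cap on UMIs per cell, but XX cells by leaving out clusters of low quality. The deepest cell held 154650 UMIs in the XX control and 27354 to 29875 UMIs in the XY samples. Counts were summed per annotated type and sample (126435795 values above 0, all whole, 0 columns unmapped) and divided by total UMIs to give CPM. Log2 ratios used a prior count of 0.5. Intervals (95%, exact Poisson, conditional binomial or Clopper-Pearson) cover counting error only. With 1 sample per group no test was made. Members and lists were chosen with earlier results of these data known.

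Genes named were the members, all listed genes of both domains with at least 100 UMIs, genes within 2.0 Mb of H19 past 2-fold in both KO samples in the same direction, from the other lists counts and those past 2-fold in both KO samples in the same direction, and for each member the 3 most correlated genes. Genes past 2-fold in 1 sample only, the largest of a list, values of Igf1r, Igf2r, Mir17hg, Mrpl23 and Gm49394 and the splits of cells by H19 were added after values were seen. Scripts were tested on simulated data. Alternatives were TMM factors, thinning to 3000 UMIs, other totals, priors, minimum UMIs, cell weights, runs and subsets of types, and, chosen after seeing the data, leaving out KO cells at 5 or more H19 UMIs, using XY control cells at 0 H19 only and leaving out germ cells. Depth per sample was 37841392 to 105192238 UMIs. Positions and transcripts were GENCODE M21, and 98.6% of genes matched. Python 3.11.15, numpy 2.4.6, pandas 2.3.3, scipy 1.17.1, matplotlib 3.10.9, R 4.3.3 and edgeR 4.0.16 (TMM factors only) were used.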

Additional observations from a re-analysis of the deposited data

Results flagged for a closer look

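Kcnq1ot1 lay on opposite sides of the XY control in the KO samples, at a log2 ratio over all cells of −0.30 in KO E11.5 and 0.91 in KO E11.75, both with intervals that excluded 0. With 1 pool at each stage the difference was not tested.

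Igf2 in mesonephros cells at 0 thinned H19 UMIs over cells at 3 or more had a log2 ratio of 0.73 in the XY control and −0.95 in the XX control. The difference was not tested, and the cells at 0 held 33.8 CPM of H19 at full depth in the XY control and 543.9 CPM in the XX control.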

How the results depend on the processing

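Of 175 values recomputed under alternatives, 158 stayed within the median counting interval over types, or within 1.5 times a count, 15 moved further and 2 turned a value whose interval had excluded 0. Counting also values whose interval held 0, 13 changed sign, 11 of them of Phlda2, which has no stable direction over types. The median log2 ratio of H19 in KO E11.5 (−6.60) was −5.52 over gonadal types only and −7.25 without KO cells at 5 or more H19 UMIs, and in the XX control (0.53) it was 0.63 after thinning and 1.08 in pre-supporting cells only. That of Igf2 in KO E11.5 (0.56) was 0.23 against XY control cells at 0 H19 UMIs, and in the XX control (−0.45) it reversed to 0.26 in pre-supporting cells. That of Kcnq1ot1 in KO E11.75 (0.97) was 0.78 with TMM factors and 1.11 in pre-supporting cells, and in the XX control (−0.13) it was −0.0043 over gonadal types and reversed to 0.048 in pre-supporting cells. Phlda2 in pre-supporting cells only was at 0.88 in KO E11.5 (−0.19 over types), 0.57 in KO E11.75 (−0.11) and 1.35 for the XX control (−0.16). Window genes past 2-fold in KO E11.5 (4) numbered 7 at 20 UMIs and 2 at 500 UMIs, and in the XX control (1) 2 and 0. The cause of these shifts was not tested. No paired analysis was possible because each group was 1 sample. Depth limits Phlda2 outside germ cells and H19 in the KO, where most types held under 100 UMIs.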
